A study of Mus musculus with 3 samples.

Results

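Integrins are the surface receptors with which leukocytes hold on to vessel walls, to other cells and to matrix, and 9 of their subunit genes were followed through the blood cells of young and aged mice. The genes were Itgal, Itgam, Itgax, Itgb2, Itgae, Itgb7, Itga4, Itgb1 and Itga6. They were taken by their symbols, and all 9 were found among the 32285 genes of the count matrices. Peripheral blood mononuclear cells (PBMCs) were sequenced as 3 droplet-based single-cell libraries with the 3′ chemistry of 10x Genomics. The young library came from mice aged 8 weeks, the aged library from mice of 16 months, and the aged-GA library from mice of 16 months that had received glycyrrhizic acid (GA), a saponin of liquorice root, for 1 month. The labels name no transgene or deletion, and the study's methods name C57BL/6 females. Each group was 1 library. A legend of the study names several mice per group, and how their blood was combined into 1 library was not given in the sources used here.

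An integrin is a pair of 1 α and 1 β subunit, and the α subunit sets most of what the pair binds. Itgb2 encodes β2, the partner of αL (Itgal, in LFA-1, which binds ICAMs), αM (Itgam, in Mac-1, the CD11b of flow cytometry) and αX (Itgax, the CD11c of flow cytometry). Itgb7 encodes β7, which pairs with α4 (Itga4) in a receptor for the gut address molecule MAdCAM-1 and with αE (Itgae, CD103) in a receptor for E-cadherin of epithelium. Itgb1 encodes β1, which pairs with α4 in VLA-4, a receptor for VCAM-1 and fibronectin, and with α6 (Itga6) in a laminin receptor. On resting cells the pairs are held in a bent, low-affinity form. Signals through Rap1, talin and kindlin open them, and the opened pairs signal back through Src and Syk family kinases.

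On the mouse genome (GRCm38, gene spans of GENCODE M21), the α chain genes Itgal, Itgam and Itgax lie on the plus strand of chromosome 7: Itgal at chr7:127296260-127335138, Itgam at chr7:128062640-128118491 and Itgax at chr7:128129547-128150657. Itgax starts 11.1 kb after the end of Itgam, and Itgad, the remaining α chain of β2 and not among the 9 genes, follows 3.72 kb after Itgax. Itgam and Itgax differed in where they were detected, as described below for plasma cells, classical monocytes and memory CD8 T cells, so the 250 bases before the start site of each are shown, from RefSeq (GRCm38.p6, plus strand, 5′ to 3′). Capitals mark every match on either strand of 3 short motifs. The first is GAGGAA, a core of the kind bound by PU.1, a factor of myeloid cells. Another is TGTGGT, the core of RUNX factors. The last is GGGCGG, the GC box of Sp1 factors.
Itgam, chr7:128062390-128062639: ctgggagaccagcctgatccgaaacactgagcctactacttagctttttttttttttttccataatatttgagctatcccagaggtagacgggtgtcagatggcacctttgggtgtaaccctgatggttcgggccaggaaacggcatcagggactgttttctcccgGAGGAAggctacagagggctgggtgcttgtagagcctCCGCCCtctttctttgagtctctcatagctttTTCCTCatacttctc
Itgax, chr7:128129300-128129549: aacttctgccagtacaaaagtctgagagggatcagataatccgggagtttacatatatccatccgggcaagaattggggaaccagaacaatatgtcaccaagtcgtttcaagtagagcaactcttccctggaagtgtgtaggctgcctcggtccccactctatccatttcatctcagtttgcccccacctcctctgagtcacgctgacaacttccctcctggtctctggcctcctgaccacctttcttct
The Itgam stretch held GAGGAA at 2 places, the nearer ending 9 bases before the start site, and GGGCGG at 1 place, on the other strand. The Itgax stretch held none of the 3 motifs, which says nothing about the factors. Among 32536 distinct mouse promoter stretches of the same length, 23.4% held the PU.1-type core, 14.0% the RUNX-type core and 33.0% the GC box, on either strand. The other genes lie apart, Itgb2 on chromosome 10, Itgae on chromosome 11, Itgb7 on chromosome 15, Itgb1 on chromosome 8, and Itga4 and Itga6 on chromosome 2.

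After filters on genes, mitochondrial share and total, the young, aged and aged-GA libraries kept 8851, 10238 and 12648 barcodes, out of libraries of 58894294, 82260961 and 98155671 UMIs (unique molecular identifiers, each a captured RNA molecule). Between 50 and 62 barcodes were shared between any 2 libraries. Cells were sorted into 17 gates by marker genes, none of them an integrin, placing 62.6%, 73.3% and 68.9% of the kept barcodes. Markers held out of the gating stood above the other gates in all 12 values each for B, NK, T, monocyte and regulatory T gates and in all 8 for neutrophils and basophils. The young library had 5 classical monocytes, 12 neutrophils, 1 plasma cell and no basophil, so those gates have values for the aged libraries only, since a gate needed 20 cells. RNA from outside the cells differed between libraries: Lyz2, a lysozyme gene of myeloid cells, stood at 0 to 8.38 CPM (UMIs of a gene per 1000000 UMIs of the gate) in the lymphocyte gates of the young library, at 55.2 to 136 CPM in the aged and at 11.4 to 38.8 CPM in the aged-GA library. As a rough guide to what such RNA adds, the integrin to Lyz2 ratio of red-cell barcodes was scaled to the Lyz2 level of each gate. This value is given below for Itgam in the B and plasma cell gates and for Itgb1 in naive CD4 T cells. It is also given for Itgb2 in other B and memory CD8 T cells. In other B cells it was 24.3% of the Itgb2 level and 19.4% of the Itgal level in the aged library. The matching young values were 7.57% and 3.29%. For some levels near 0 it was a large part of the level or above it. For Itgae in the young library it was 175% of the level in other B cells, 83.3% in NK and 75.0% in naive CD4 T cells. For Itga6 in young NK cells it was 31.2%, and for Itgam in gamma-delta T cells of aged-GA mice 72.2%. All young values are rough, since the young red-cell barcodes held 2 UMIs of Lyz2 and 1 each of Itgae, Itga6 and Itgam. All intervals below cover counting error only.

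**Figure D1:**
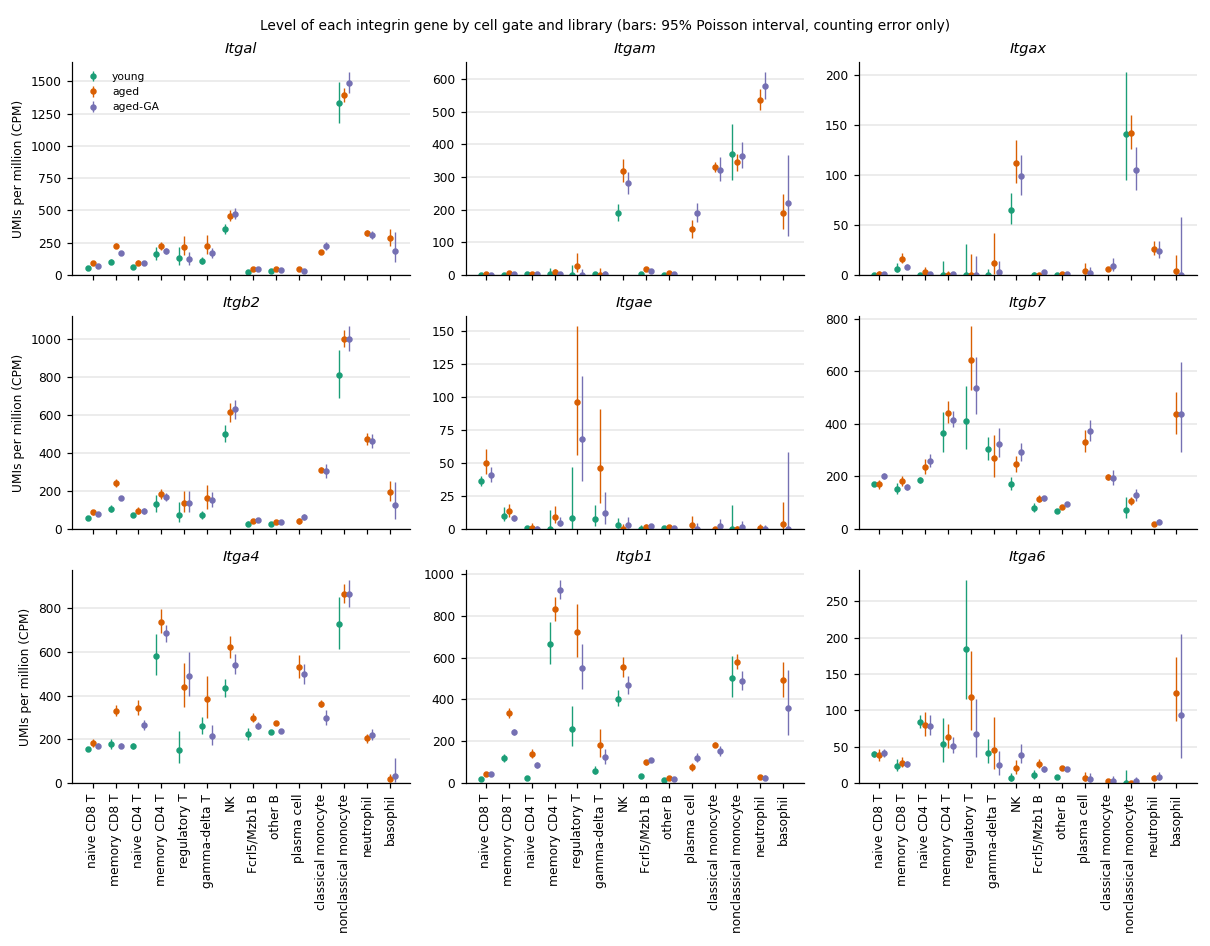
Level of each of the 9 integrin genes, in CPM (y axis, linear, a scale of its own in each panel), in 14 cell gates (x axis) and 3 libraries (colours), with 95% Poisson intervals as bars. Itgal and Itgb2 stand highest in nonclassical monocytes, Itgam in neutrophils, Itgae in naive CD8 and regulatory T cells, and Itgb1 in memory CD4 T cells. Points are missing where a library had under 20 cells in the gate.

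The β2 family was highest in cells of innate immunity. In nonclassical monocytes, the patrolling monocytes of the vessel wall, Itgal stood at 1330.0, 1391 and 1489.5 CPM in young, aged and aged-GA mice. Itgb2, the shared β chain, stood at 809, 997 and 998 CPM in the same cells. The next gate in the order of Itgal was NK, at 354, 460.0 and 471 CPM, and no library of either gate overlapped with the other. Naive CD8 T cells had 52.6, 91.0 and 72.0 CPM of Itgal, and the remaining B cells ("other B") had 28.5, 45.2 and 38.8 CPM. For Itgb2 the lowest values were again in the B lineage, with 24.8, 34.3 and 34.3 CPM in other B cells and 28.5, 40.6 and 48.3 CPM in the B cells with Fcrl5, Mzb1 or related genes, 2 gates that are neighbours in this order and overlap in range, and 40.7 and 61.7 CPM in plasma cells of aged and aged-GA mice. Over the 38 sums of a gate and a library, the gene whose profile was most like that of Itgal was Itgb2 (Pearson r = 0.96 of log2(CPM + 1), a description over sums that share libraries), ahead of Lrrfip1 (0.93) and Efhd2 (0.93). For Itgb2 the nearest genes were Efhd2 (0.96), Itgal (0.96) and St3gal4 (0.90).

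Itgam, the CD11b gene, was highest in neutrophils, at 537 and 579 CPM in aged and aged-GA mice. It stood at 370.3, 345 and 365 CPM in nonclassical monocytes of the 3 libraries and at 329.8 and 322 CPM in classical monocytes, the inflammatory Ly6c2-high cells, of the aged libraries. The nonclassical values were the higher ones, and in each aged library the intervals of the 2 gates overlapped, 319 to 372 against 315 to 345 CPM in aged and 326 to 407 against 286 to 360.0 CPM in aged-GA mice. NK cells held 189.8, 318 and 280.3 CPM, with 86.3, 168 and 185 CPM in those with a Cd27 UMI and 205, 351 and 299 CPM in those without, Cd27 being a marker of less mature NK cells. In all 3 libraries the cells without Cd27 had more Itgam, and the reverse held for Itgax, at 108, 197 and 161 CPM with Cd27 and 58.5, 93.6 and 86.8 CPM without. The Itgax counts with Cd27 were small, 15, 34 and 26 UMIs. Itgax was otherwise found in nonclassical monocytes, at 141, 142 and 105 CPM, and at a lower level in neutrophils, 26.2 and 24.3 CPM. The genes nearest to Itgam in profile were Trf (r = 0.91), Mir22hg (0.89) and Fcgr3 (0.88), and those nearest to Itgax were Itgb2 (0.84), Efhd2 (0.84) and S1pr5 (0.83).

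Nonclassical monocytes carried more of most integrins than classical monocytes. The level of Itgal was 174 and 226 CPM in classical monocytes of aged and aged-GA mice, so that nonclassical monocytes had 7.97-fold (95% interval 7.41 to 8.59) and 6.59-fold (95% interval 5.70 to 7.65) as much. The 5 young classical monocytes, too few for the fit, had 39 UMIs of Itgal, or 901 CPM (95% Poisson interval 641 to 1232). That is above the classical monocytes of both aged libraries, and its interval overlaps that of young nonclassical monocytes, 1177 to 1497 CPM. Itgax stood at 5.95 and 8.49 CPM in classical monocytes, and nonclassical monocytes had 23.9-fold (95% interval 16.7 to 35.5) and 12.3-fold (95% interval 6.01 to 29.4) as much. Contrasts between gates were fitted with edgeR's quasi-likelihood test on sums of UMIs per gate and library, with the library as a block and Benjamini-Hochberg adjustment over all genes tested, and a gene was called at an adjusted p under 0.05 and at least a 2-fold change. The 3 libraries differ in age and treatment and stand as the replicates of these contrasts. The spread was estimated over the sums of all gates fitted together, so the p-values do not measure the repeat of 1 contrast alone. Classical monocytes and plasma cells entered the fits from the 2 aged libraries only. Of the 9 genes, 6 were called between the 2 kinds of monocyte, 5 higher and 1 lower in nonclassical cells, where 15.7% of the 10613 genes tested were called.

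The log2 fold change of Itgal was 2.71 ± 0.12 (SE, adjusted p = 8.77e-24) and that of Itgax 4.19 ± 0.28 (SE, adjusted p = 1.1e-16). Itgb2 rose with them, by 1.44 ± 0.11 (SE, adjusted p = 7.89e-15). The integrins of the β1 side rose as well, Itga4 by 1.11 ± 0.15 (SE, adjusted p = 2.71e-08) and Itgb1 by 1.50 ± 0.20 (SE, adjusted p = 3.35e-08). Itgb7 was lower, with a log2 fold change of -1.11 ± 0.14 (SE, adjusted p = 1.54e-08). Its level was 199 and 195 CPM in classical monocytes of aged and aged-GA mice. Nonclassical monocytes had 73.1, 105 and 127 CPM in young, aged and aged-GA mice, below both classical values. By CPM within a library the difference was short of 2-fold in both aged libraries. The call of Itgb7 past 2-fold thus depends on the scaling of the sums (TMM) and on the young nonclassical cells, which have no classical partner in the fit. Outside the fit, the 5 young classical monocytes had 3 UMIs of Itgb7, or 69.3 CPM (Poisson interval 14.3 to 203). That is close to the 73.1 CPM of young nonclassical monocytes, so the difference was not seen in the young library. With 3 UMIs and so wide an interval, the young cells cannot decide whether it holds there. Itgb7 lost its call by the fold when the young or the aged library was left out, at -0.99 and -0.92. The fit found no difference past its threshold for Itgam, at -0.04 ± 0.16 (SE, adjusted p = 0.881). The median log2 fold change was 1.11 over the 9 genes and -0.06 over all genes. As the young library lacked the classical gate, this fit took every sum of at least 20 cells, a choice made after the cell numbers were seen.

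Set against NK cells, classical monocytes of the aged libraries were low in Itgax, Itgb1, Itgal and Itga6. In the contrast of classical monocytes over NK cells 4 of the 9 were called, all lower, with 34.9% of genes called between these distant cell types. Itgax differed most, with a log2 fold change of -3.87 ± 0.30 (SE, adjusted p = 3.75e-15), followed by Itga6 at -2.67 ± 0.52 (SE, adjusted p = 1.94e-05). Itgb1 was at -1.50 ± 0.20 (SE, adjusted p = 9.18e-09) and Itgal at -1.06 ± 0.12 (SE, adjusted p = 1.89e-10). Without the aged library 2 of the 9 were called, Itga6 standing at -2.64 with an adjusted p of 0.0709 and Itgal at -0.82. Itgal also came under 2-fold without the young library (-0.99), with no filter on low counts (-0.98) and with no library block (-0.89). The 5 young classical monocytes, which are not in the fit, had more Itgal (901 CPM) than young NK cells (354 CPM), the reverse of the aged libraries. For Itgam the fit gave 0.36 ± 0.16 (SE, adjusted p = 0.0529), and for Itgb7 -0.04 ± 0.13 (SE, adjusted p = 0.825).

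**Figure D2:**
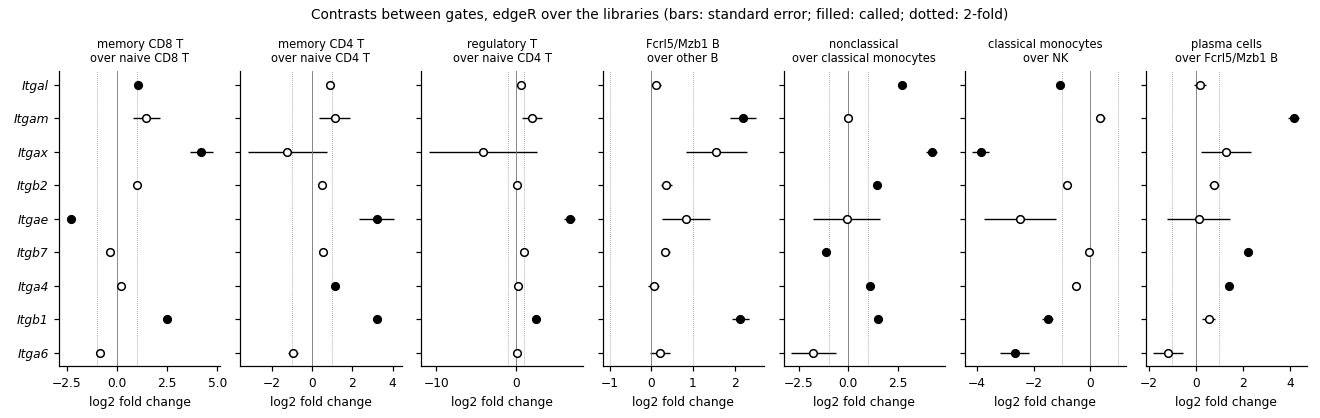
Log2 fold change (x axis) of the 9 genes (y axis) in 7 contrasts between gates, one panel each with an x axis of its own, from the edgeR fits, with standard errors as bars. Filled points were called (adjusted p under 0.05 and past the dotted lines at 2-fold), and open points were not. Itgb1 is filled in 6 of the 7 panels, and Itgal and Itgax are filled on the right for nonclassical over classical monocytes.

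Plasma cells, the antibody-secreting end stage of the B lineage, carried Itgam, a gene usually read as a myeloid marker. Its level there was 139 and 188 CPM in the 2 aged libraries, from 106 and 165 UMIs. The UMIs were spread over 25 of 49 and 25 of 43 cells, and without the cell that held most of them 95 and 132 were left. Plasma cells were deep, with medians of 15872 and 20460 UMIs, so shares were also taken after thinning every cell to 1000 UMIs. An Itgam UMI was then found in 14.3% of plasma cells of aged mice (exact binomial interval 5.94 to 27.2%) and 18.6% of those of aged-GA mice (8.39 to 33.4%). In naive CD4 T cells, which should lack the gene, with median depths of 4458 and 5047 UMIs, the thinned shares were 0.40% and 0.62%. Among myeloid genes, Lyz2 stood at 55.2 and 11.4 CPM in plasma cells of aged and aged-GA mice, below its 93.4 and 25.4 CPM in the Fcrl5/Mzb1 B gate of the same libraries. S100a8 stood at 78.9 and 22.8 CPM against 68.2 and 46.6 CPM, S100a9 at 80.2 and 24.0 against 78.4 and 61.8 CPM and Cd68 at 5.26 and 11.4 against 10.6 and 6.63 CPM, so that S100a8 and S100a9 were higher in plasma cells of the aged and Cd68 in those of the aged-GA library. Csf1r was at 1.31 and 0 CPM. The part of myeloid RNA in the Itgam level was not tested beyond the following value. Red-cell barcodes scaled to that Lyz2 level would carry 1.70 and 0.549 CPM of Itgam.

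Among the B gates Itgam was higher in the Fcrl5/Mzb1 gate. The Fcrl5/Mzb1 gate holds B cells with at least 2 of Fcrl5, Mzb1, Bhlhe41, Zbtb32 and Cd9, and it had 1.73, 17.3 and 13.3 CPM of Itgam in young, aged and aged-GA mice. Other B cells had 0.134, 4.39 and 2.66 CPM. At the Lyz2 level of other B cells red-cell barcodes would carry 0.937, 4.20 and 1.87 CPM of Itgam. These were 700%, 95.7% and 70.1% of the level in other B cells, the young level resting on 1 UMI. The matching values for the Fcrl5/Mzb1 gate were 0, 2.88 and 1.22 CPM. The young value of 0 arose because that gate held no Lyz2 UMI in the young library. Within a library, the Fcrl5/Mzb1 gate had 3.95-fold (95% interval 2.58 to 6.02) as much Itgam as other B cells in aged and 4.98-fold (95% interval 3.37 to 7.37) as much in aged-GA mice, whereas in young mice the counts were 2 UMIs against 1. The fit called 2 of the 9 genes, both higher in the Fcrl5/Mzb1 gate, against 3.08% of all genes. Itgam had a log2 fold change of 2.20 ± 0.32 (SE, adjusted p = 2.71e-06). Itgb1 had 2.14 ± 0.21 (SE, adjusted p = 5.56e-10), on levels of 31.1, 98.5 and 112 CPM against 12.99, 24.3 and 19.9 CPM, higher in all 3 libraries.

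From the Fcrl5/Mzb1 gate to plasma cells, 3 of the 9 genes were called, all higher in plasma cells, where 19.4% of genes were called. This contrast was added after the levels had been seen. The log2 fold change of Itgam was 4.15 ± 0.25 (SE, adjusted p = 5.08e-19). Itgb7 rose by 2.21 ± 0.13 (SE, adjusted p = 3.28e-19), to 331 and 374 CPM, and its partner Itga4 by 1.43 ± 0.15 (SE, adjusted p = 5.27e-11), to 531 and 497 CPM, where the Fcrl5/Mzb1 gate had 80.3, 115 and 116 CPM of Itgb7 and 223, 299 and 262 CPM of Itga4 in young, aged and aged-GA mice. By CPM within a library Itga4 was short of 2-fold, at 1.78-fold (95% interval 1.57 to 2.01) in aged and 1.90-fold (95% interval 1.70 to 2.12) in aged-GA mice, so its call past 2-fold depends on the scaling of the sums (TMM). Itgb1 stood at 74.9 and 119.9 CPM, with a log2 fold change of 0.55 ± 0.28 (SE, adjusted p = 0.136).

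Itgae, the CD103 gene, was found in few kinds of blood cell. Naive CD8 T cells had 36.1, 50.2 and 41.0 CPM in young, aged and aged-GA mice, from 347, 113 and 204 UMIs. Naive CD4 T cells, gated with the same naive genes, had 2, 1 and 0 UMIs in all. Pooled over the libraries, naive CD8 T cells had 98.5-fold (95% interval 33.6 to 479) as much as naive CD4 T cells. After thinning to 1000 UMIs, an Itgae UMI was found in 3.69%, 5.41% and 4.26% of naive CD8 T cells, against 0%, 0.40% and 0% of naive CD4 T cells. The median depths were 5794, 6078 and 7029 UMIs in naive CD8 and 4794.5, 4458 and 5047 UMIs in naive CD4 T cells, and the 0 of 919 young naive CD4 T cells allows a share of up to 0.401%, the exact upper bound. Gamma-delta T cells, an unconventional T lineage, had 5, 8 and 5 UMIs, or 7.62, 45.9 and 12.1 CPM. These counts are too small to set the aged library apart. NK cells, both B gates and neutrophils had 0 to 2.99 CPM. The genes nearest to Itgae in profile were less alike than for any other of the 9, Nckap1 at r = 0.71, Gm41764 at 0.70 and Prrt1 at 0.69.

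Among CD8 T cells Itgae fell with the memory phenotype. Memory CD8 T cells had 10.1, 13.3 and 8.06 CPM, below the naive cells in every library, and the log2 fold change was -2.31 ± 0.20 (SE, adjusted p = 1.9e-11). Among CD4 T cells the order was the opposite, from a level near 0. Regulatory T cells, which restrain immune responses, had 1, 17 and 13 UMIs in 20, 34 and 30 cells, or 8.38, 95.9 and 67.9 CPM, and pooled they had 159-fold (95% interval 49.5 to 811) as much as naive CD4 T cells, on 31 against 3 UMIs. The fit gave a log2 fold change of 6.67 ± 0.70 (SE, adjusted p = 4.08e-09), which rests on the aged libraries, as the young library had 1 UMI in the regulatory gate. Memory CD4 T cells had 0, 9 and 8 UMIs, and their call, 3.21 ± 0.86 (SE, adjusted p = 0.00578), was lost without the aged library (adjusted p = 0.0730), without the aged-GA library (adjusted p = 0.101) and with stricter gates (adjusted p = 0.107).

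Its partner Itgb7 was spread over all lymphocytes, highest in regulatory T cells at 410.4, 643 and 538 CPM, memory CD4 T cells at 363, 442 and 416 CPM and basophils at 436 and 439 CPM, 3 gates whose ranges overlap. Naive CD8 and naive CD4 T cells had 171, 169.6 and 202 CPM and 185, 236 and 259 CPM. Neutrophils were lowest, at 19.8 and 27.3 CPM. In the fit Itgb7 was past the adjusted p but short of 2-fold in memory over naive CD4 T cells, 0.55 ± 0.11 (SE, adjusted p = 0.000312), and in regulatory over naive CD4 T cells, 0.92 ± 0.14 (SE, adjusted p = 8.88e-06). By CPM within a library regulatory T cells had 2.22-fold, 2.73-fold and 2.08-fold as much as naive CD4 T cells in young, aged and aged-GA mice. Whether that difference is past 2-fold thus depends on the scaling of the sums (TMM). Its nearest genes in profile were Ssbp3 (r = 0.86), S100a10 (0.85) and Anxa6 (0.84).

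Itgb1, the β chain of the VLA receptors, set memory T cells apart from naive ones in both lineages. Memory CD4 T cells had 666, 833 and 925 CPM in young, aged and aged-GA mice and naive CD4 T cells 24.5, 139.8 and 85.4 CPM. The ratio within a library was 27.2-fold (95% interval 21.4 to 34.8) in young, 5.96-fold (95% interval 5.03 to 7.09) in aged and 10.8-fold (95% interval 9.15 to 12.9) in aged-GA mice. The memory cells were higher in all 3 libraries, and the widest gap was in the young library, where naive cells were lowest. In CD8 T cells Itgb1 stood at 117, 336 and 243 CPM in memory and 21.2, 43.1 and 42.6 CPM in naive cells. Of its α partners, Itga4 was at 583, 739 and 684 CPM in memory CD4 T cells against 169, 344 and 265 CPM in naive ones. Itga4 was highest in nonclassical monocytes, at 726, 866 and 865 CPM, and naive CD8 T cells, with 157, 184 and 169 CPM, were near the low end of its order beside neutrophils, with 204 and 220.4 CPM. Near Itgb1 in profile were Spn (r = 0.84) and Smap1 (0.83), and the genes nearest to Itga4 were Unc50 (0.86), Insig1 (0.82) and B2m (0.82).

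In memory over naive CD8 T cells 4 of the 9 genes were called, 3 higher and 1 lower, beside 6.35% of the 9922 genes tested. Itgb1 rose by 2.51 ± 0.20 (SE, adjusted p = 1.83e-12) on the log2 scale. Itgax rose by 4.21 ± 0.59 (SE, adjusted p = 9.25e-07) from almost no UMIs, 0, 3 and 3 in naive against 9, 38 and 46 in memory cells, a ratio of 12.3-fold (95% interval 3.89 to 62.1) in aged and 13.1-fold (95% interval 4.21 to 65.8) in aged-GA mice. Itgal rose by 1.04 ± 0.10 (SE, adjusted p = 4.6e-10), close to the limit of 2-fold, under which it came when the aged library (0.98) or the aged-GA library (0.998) was left out. Itgb2, its partner, was just below the same limit at 0.99 ± 0.10 (SE, adjusted p = 1.73e-09). Itga6 and Itgb7 were lower past the adjusted p but by less than 2-fold, at -0.85 ± 0.22 (SE, adjusted p = 0.00372) and -0.33 ± 0.10 (SE, adjusted p = 0.0196), and Itga4 gave 0.18 ± 0.14 (SE, adjusted p = 0.431).

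In memory over naive CD4 T cells 3 of the 9 were called, all higher, beside 9.06% of genes. Itgb1 rose by 3.21 ± 0.20 (SE, adjusted p = 1.06e-14) and Itga4 by 1.12 ± 0.14 (SE, adjusted p = 1.06e-07), the pair of VLA-4, and the other was Itgae, as above. Itga4 came just under 2-fold, at 0.996, without the young library. In the fit Itgal and Itgb2 were higher by less than 2-fold, 0.88 ± 0.12 (SE, adjusted p = 9.4e-07) and 0.52 ± 0.13 (SE, adjusted p = 0.00258). By CPM within a library memory CD4 T cells had 2.69-fold, 2.37-fold and 1.96-fold as much Itgal in young, aged and aged-GA mice. Its side of the 2-fold limit thus depends on the scaling of the sums. Itga6 was lower by less than 2-fold, -0.94 ± 0.24 (SE, adjusted p = 0.00356). In regulatory over naive CD4 T cells 2 of the 9 were called, Itgae and Itgb1, both higher, beside 7.14% of genes. Itgb1 rose by 2.52 ± 0.27 (SE, adjusted p = 5.77e-09), on levels of 259.7, 722 and 548 CPM. The median log2 fold change over the 9 genes was 0.99, 0.88 and 0.59 in the CD8, CD4 and regulatory contrasts, and -0.01, -0.02 and -0.10 over all genes.

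Itga6, the α chain of a laminin receptor, was higher in naive than in memory T cells, unlike Itgb1. Naive CD4 T cells had 84.1, 79.7 and 78.5 CPM, a level that hardly moved between libraries, and naive CD8 T cells had 39.6, 38.2 and 40.8 CPM. Regulatory T cells had 184, 118 and 67.9 CPM on 22, 21 and 13 UMIs, and their intervals overlapped those of naive CD4 T cells in the 2 aged libraries but not in the young one. Monocytes were near 0, with 0, 1 and 2 UMIs in nonclassical cells and 16 and 3 in classical cells of the 2 aged libraries. NK cells had 8, 20 and 39 UMIs. The genes nearest to Itga6 in profile were Faah (r = 0.88), Tagap (0.88) and Inpp4b (0.87).

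Basophils, found in the aged libraries with 102 and 23 cells, had their own set. Itgb7 stood at 436 and 439 CPM and Itgb1 at 490.4 and 361 CPM. Itga4, the α chain that both can take, stood at 18.2 and 31.4 CPM on 5 and 2 UMIs, the lowest of the gates with at least 20 cells. Every other gate of that size had 151 CPM of Itga4 or more. Itga6 was at 124 and 94.1 CPM. Of the α chains outside the 9 genes, named here after their values were seen, basophils had 262 and 251 CPM of Itga2b, the αIIb chain of platelets, 163 and 141 CPM of Itga2 and 90.8 and 94.1 CPM of Itga1, collagen receptor chains that pair with β1. Pf4, a platelet gene, was at 32.7 and 31.4 CPM in the same cells. Its part in the Itga2b level was not tested.

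Partner chains were also compared as shares of UMIs, which do not depend on the total UMIs of a gate. Of the UMIs of Itgal, Itgam and Itgax, which all pair with β2 as Itgad, not counted here, also does, Itgam made up 75.2% and 85.9% in plasma cells of aged and aged-GA mice, 64.6% and 57.8% in classical monocytes and 60.5% and 63.6% in neutrophils. In nonclassical monocytes it made up 20.1%, 18.4% and 18.6% in young, aged and aged-GA mice, Itgal making up 72.2%, 74.1% and 76.0%. In naive CD8 T cells the share of Itgal was 99.4%, 96.7% and 97.5%. Of the UMIs of Itgb1 and Itgb7, the β chains of Itga4, Itgb1 made up 11.7%, 37.2% and 24.8% in naive and 64.7%, 65.3% and 69.0% in memory CD4 T cells. The share was 11.1%, 20.3% and 17.4% in naive and 43.5%, 64.9% and 60.3% in memory CD8 T cells, and 87.3%, 84.7% and 79.3% in nonclassical monocytes. Such shares compare cell types. They do not give the proportion of protein pairs, as a UMI of one gene need not be captured as readily as that of another.

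**Figure D3:**
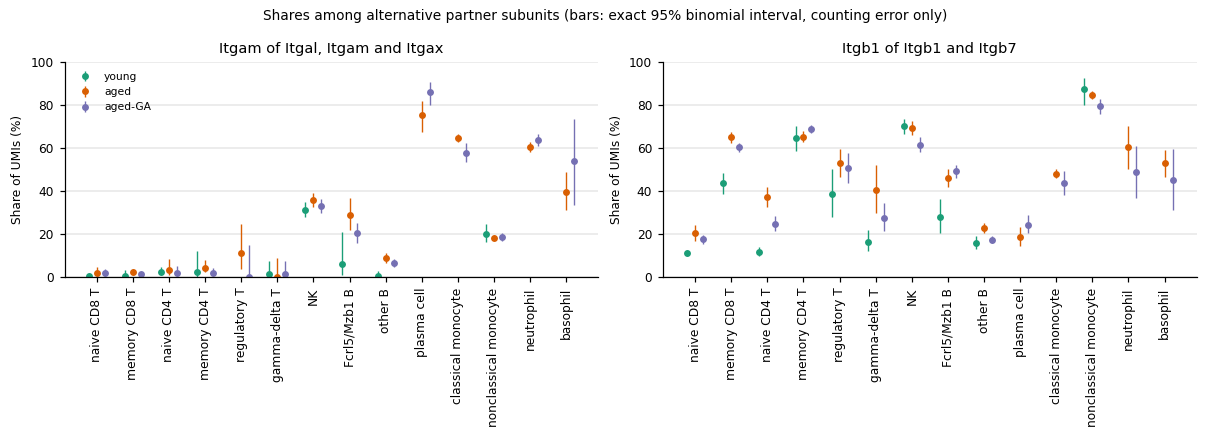
Share of UMIs in percent (y axis) by cell gate (x axis) and library (colours): on the left Itgam among Itgal, Itgam and Itgax, without Itgad, on the right Itgb1 among the 2 β chains of Itga4, with exact 95% binomial intervals as bars. Itgam takes 75.2% and 85.9% in plasma cells, and the Itgb1 share is higher in memory than in naive T cells in all 3 libraries.

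The remaining integrin subunits and the pathway around them were counted from lists, given by their calls and medians. Of all genes, 6.35% were called in memory over naive CD8 and 9.06% in memory over naive CD4 T cells. Of 18 other integrin subunits, 8 could be tested in the lymphocyte contrasts. In memory over naive CD4 T cells 3 of the 8 were higher and none lower, namely Itga1 at 6.05 ± 1.50 (SE, adjusted p = 0.00313), Itga2 at 2.98 ± 0.61 (SE, adjusted p = 0.000315) and Itgav, the αv chain of vitronectin receptors, at 1.80 ± 0.25 (SE, adjusted p = 8.27e-07). Of Itga1 there was no UMI in naive and 1, 8 and 6 in memory CD4 T cells of young, aged and aged-GA mice, so that its fitted value depends on the prior count. In CD8 T cells 2 were higher and 1 lower, Itga1 at 4.23 ± 0.44 (SE, adjusted p = 5.02e-09), with 13, 75 and 104 UMIs in memory cells, Itga2 at 2.75 ± 0.46 (SE, adjusted p = 2.34e-05) and the fibronectin receptor chain Itga5, with no UMI in memory and 10, 1 and 4 in naive cells, at -4.95 ± 1.45 (SE, adjusted p = 0.0136). Of 18 inside-out activation genes tested, 1 was higher and none lower in each of the 2 memory contrasts, Rap1gap2, a brake on Rap1, at 3.19 ± 0.34 (SE, adjusted p = 2.48e-09) in CD8 and 4.67 ± 0.54 (SE, adjusted p = 1.47e-08) in CD4 T cells. Of 16 actin linkage genes, Zyx, which encodes the adhesion protein zyxin, was the one called in each, at 1.29 ± 0.13 (SE, adjusted p = 2.99e-10) and 1.64 ± 0.22 (SE, adjusted p = 2.42e-07). Of 26 outside-in signalling genes 1 was higher in memory CD8 T cells, the Src family kinase gene Fgr at 1.72 ± 0.51 (SE, adjusted p = 0.0152), while in CD4 T cells 1 was higher, the phospholipase gene Plcg2 at 2.37 ± 0.71 (SE, adjusted p = 0.0151), and 1 lower, the focal adhesion kinase gene Ptk2 at -4.11 ± 0.97 (SE, adjusted p = 0.00170). Of 15 inhibitors and recycling genes none was called in CD8 and 1 was higher in CD4 T cells. Of 9 ligands 1 was higher in CD8 and 3 in CD4 T cells, and of 11 tetraspanins and surface partners 2 were lower in CD8, and 2 higher and 1 lower in CD4 T cells. The activation, actin and signalling lists thus had 1 or 2 calls each, shares near or below those of all genes. The medians of these 3 lists lay between 0.04 and 0.24.

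Between the 2 kinds of monocyte 15.7% of all genes were called, 696 higher and 975 lower in nonclassical cells. Of 18 inside-out activation genes 5 were higher and none lower in nonclassical cells. The largest were Rasgrp1, an activator of Ras, at 3.48 ± 0.30 (SE, adjusted p = 2.66e-13), Rap1gap2 at 2.16 ± 0.18 (SE, adjusted p = 2.9e-14) and Rassf5, which encodes the Rap1 effector RAPL, at 1.24 ± 0.12 (SE, adjusted p = 2.61e-12). Of 25 outside-in signalling genes 6 were higher and none lower, led by the kinase genes Fyn at 2.86 ± 0.17 (SE, adjusted p = 5.51e-19) and Ptk2b at 1.60 ± 0.13 (SE, adjusted p = 2.34e-14) and the ubiquitin ligase gene Cblb at 1.76 ± 0.14 (SE, adjusted p = 2.62e-14). Of 11 integrin ligands 1 was higher and 5 were lower, the largest being the matrix glycoprotein gene Spp1 at -6.96 ± 1.61 (SE, adjusted p = 0.000662), the fibronectin gene Fn1 at -6.39 ± 0.26 (SE, adjusted p = 2.95e-24) and the thrombospondin gene Thbs1 at -5.07 ± 0.24 (SE, adjusted p = 1.14e-22). Of 13 tetraspanins and surface partners 2 were higher, Cd82 at 3.26 ± 0.19 (SE, adjusted p = 4.74e-19) and Cd81 at 3.25 ± 0.29 (SE, adjusted p = 8.12e-13), a share close to that of all genes. Of 17 actin linkage genes 3 were higher and 1 lower, and of 15 inhibitors and recycling genes 1 was higher and 1 lower. The medians were 0.69 for inside-out activation, 0.45 for outside-in signalling and -0.29 for ligands, where the median of all genes was -0.06. In plasma cells over the Fcrl5/Mzb1 gate 19.4% of all genes were called, 1122 higher and 939 lower. Of 18 inside-out activation genes 1 was higher and 6 were lower, with a median of 0.04, and of 25 outside-in signalling genes 1 was higher and 5 were lower, with a median of -0.49, where the median of all genes was -0.11. Of 17 actin linkage and 15 inhibitors and recycling genes 2 each were lower, and none of 11 ligands was called. Rap1a, which encodes Rap1A itself, was the inside-out gene that rose, at 1.55 ± 0.11 (SE, adjusted p = 4.48e-17), while Rasgrp1 at -1.51 ± 0.27 (SE, adjusted p = 1.07e-05) and Rassf5 at -1.29 ± 0.25 (SE, adjusted p = 4.88e-05) fell.

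Between the aged and the young library the integrins were mostly higher in the aged one. With 1 library per group no test was possible, and a difference between groups cannot be told apart from one between libraries. A pair of a gene and a gate was counted where the gate had 50 cells in both libraries and the gene 50 UMIs over both, which gave 39 pairs in 6 gates. Of these, 36 were higher and 3 lower in the aged library, and 34 had an interval wholly above 0 and none wholly below. The matching shares over all genes were not counted, so whether these counts are unusual cannot be told. Past 2-fold were 10 of the 39, all higher, where 7.14% of 41816 pairs of any gene and a gate were past 2-fold. Higher past 2-fold were 2.82% (NK) to 9.30% (memory CD8 T) of all genes counted in a gate. The median of all genes was itself shifted, by 0.04 to 0.28 on the log2 scale between gates, and relative to this median 33 of the 39 pairs were higher and 6 past 2-fold. The share of all genes past 2-fold relative to the median was not counted. Free RNA was not taken off these levels. For Itgb2 in other B cells it would be 8.32 of 34.3 CPM in the aged and 1.87 of 24.8 CPM in the young library. In memory CD8 T cells it would be 5.48 of 241 CPM in the aged and 1.35 of 105 CPM in the young library. Its part in the ratios was not tested.

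Itgb1 was past 2-fold in 4 of the 6 gates, more than any other of the 9 genes. Its log2 ratio was 2.51 (95% interval 2.16 to 2.87) in naive CD4 T cells, 1.66 (95% interval 1.16 to 2.21) in the Fcrl5/Mzb1 B gate, 1.52 (95% interval 1.28 to 1.76) in memory CD8 T cells and 1.02 (95% interval 0.66 to 1.38) in naive CD8 T cells. In NK cells it was 0.46 (95% interval 0.27 to 0.64) and in other B cells 0.90 (95% interval 0.57 to 1.25). In naive CD4 T cells an Itgb1 UMI was found, after thinning to 1000 UMIs, in 2.39% of young and 10% of aged cells (exact intervals 1.51 to 3.60% and 6.58 to 14.4%), and unthinned in 7.17% and 20%. The memory genes Cd44 and S100a4 differed in the same gate, at 14.0, 56.8 and 35.8 CPM and 12.5, 99.2 and 43.9 CPM in young, aged and aged-GA mice, whereas the 8 memory genes used for gating summed to 313, 282 and 301 CPM. Their part in the Itgb1 ratio was not tested. Relative to the median of all genes Itgb1 was past 2-fold in 3 of the 6 gates, since it came under it in naive CD8 T cells, at 0.83. Free RNA at the Lyz2 level of the aged gate would add 2.24 CPM to the 139.8 CPM of Itgb1.

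The β2 pair was past 2-fold in memory CD8 T cells, Itgal at 1.15 (95% interval 0.88 to 1.42) and Itgb2 at 1.19 (95% interval 0.93 to 1.46). Itgal stood at 102, 226 and 167 CPM in the young, aged and aged-GA libraries and Itgb2 at 105, 241 and 160.4 CPM. Relative to the median of all genes in that gate both came under 2-fold, at 0.87 and 0.91. The memory genes used for gating summed to 7909, 20057 and 15519 CPM in that gate, and Nkg7, a cytotoxic granule gene, stood at 937, 2001 and 1463 CPM, both highest in the aged library. Their part in these ratios and in that of Itgb1 in the same gate was not tested. Itga6 was past 2-fold in both B gates, 1.35 (95% interval 0.45 to 2.37) and 1.33 (95% interval 0.93 to 1.76), but not in naive CD8 or naive CD4 T cells, at -0.05 (95% interval -0.41 to 0.29) and -0.08 (95% interval -0.42 to 0.25). Itga4 was past it in naive CD4 T cells, 1.03 (95% interval 0.85 to 1.20), and came under it relative to the median of all genes, at 0.85. Itgam in other B cells, on 52 UMIs in aged against 1 in young mice, gave 5.03 (95% interval 2.49 to 10.37). The free RNA value above comes close to the aged level. Itgae was counted in naive CD8 T cells alone, at 0.47 (95% interval 0.15 to 0.78). In NK cells all 7 genes counted were higher and none past 2-fold, with Itgam at 0.75 (95% interval 0.49 to 1.01), Itgax at 0.79 (95% interval 0.34 to 1.24) and Itga4 at 0.52 (95% interval 0.35 to 0.70).

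Between the aged-GA and the aged library the differences were smaller. Of 69 pairs in 10 gates, 21 were higher and 48 lower in the aged-GA library, and 41 had an interval that covers 0. The matching shares over all genes were not counted here either. Past 2-fold was 1 of the 69, where 1.33% of 67772 pairs of any gene and a gate were. That pair was Itgax in memory CD8 T cells, at -1.05 (95% interval -1.70 to -0.39), on 46 UMIs against 38 in a gate with more cells in the aged-GA library. The median of all genes moved by -0.09 to 0.11 between gates, and relative to it no pair was past 2-fold.

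Memory CD8 T cells were the one gate of the 10 in which every integrin gene counted, 8 in all, was lower in the aged-GA library, with a median of -0.53 against -0.09 over all genes. Itga4 was at -0.96 (95% interval -1.10 to -0.82), on levels of 178, 331 and 170.2 CPM in the young, aged and aged-GA libraries, so that the aged library was the highest of the 3. Itgb2 was at -0.58 (95% interval -0.74 to -0.43), Itgb1 at -0.47 (95% interval -0.60 to -0.34) and Itgal at -0.44 (95% interval -0.59 to -0.28). In the same gate S100a4 stood at 321, 365 and 167 CPM, Nkg7 at 937, 2001 and 1463 CPM and Cd44 at 75.6, 102 and 118 CPM in young, aged and aged-GA mice, and the part of these in the ratios was not tested. In naive CD4 T cells Itgb1 was lower, -0.71 (95% interval -1.04 to -0.38), and in memory CD4 T cells slightly higher, 0.15 (95% interval 0.03 to 0.28).

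In the myeloid gates, compared here for the 2 aged libraries, most intervals covered 0. Neutrophils had all 7 counted genes within -0.22 to 0.46, every interval covering 0, with Itgam at 0.11 (95% interval -0.03 to 0.24) and Itgb2 at -0.03 (95% interval -0.18 to 0.12). In classical monocytes Itgal was higher, 0.37 (95% interval 0.15 to 0.59). Lower there were Itga4, -0.28 (95% interval -0.47 to -0.10), and Itgb1, -0.28 (95% interval -0.55 to -0.03). In nonclassical monocytes Itgax was lower, -0.44 (95% interval -0.80 to -0.10), and Itgb1 too, -0.25 (95% interval -0.42 to -0.09). Itgal was slightly higher there, 0.10 (95% interval 0.003 to 0.19). In NK cells Itga6 was the one with the largest ratio, 0.92 (95% interval 0.11 to 1.78), on 39 against 20 UMIs.

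**Figure D4:**
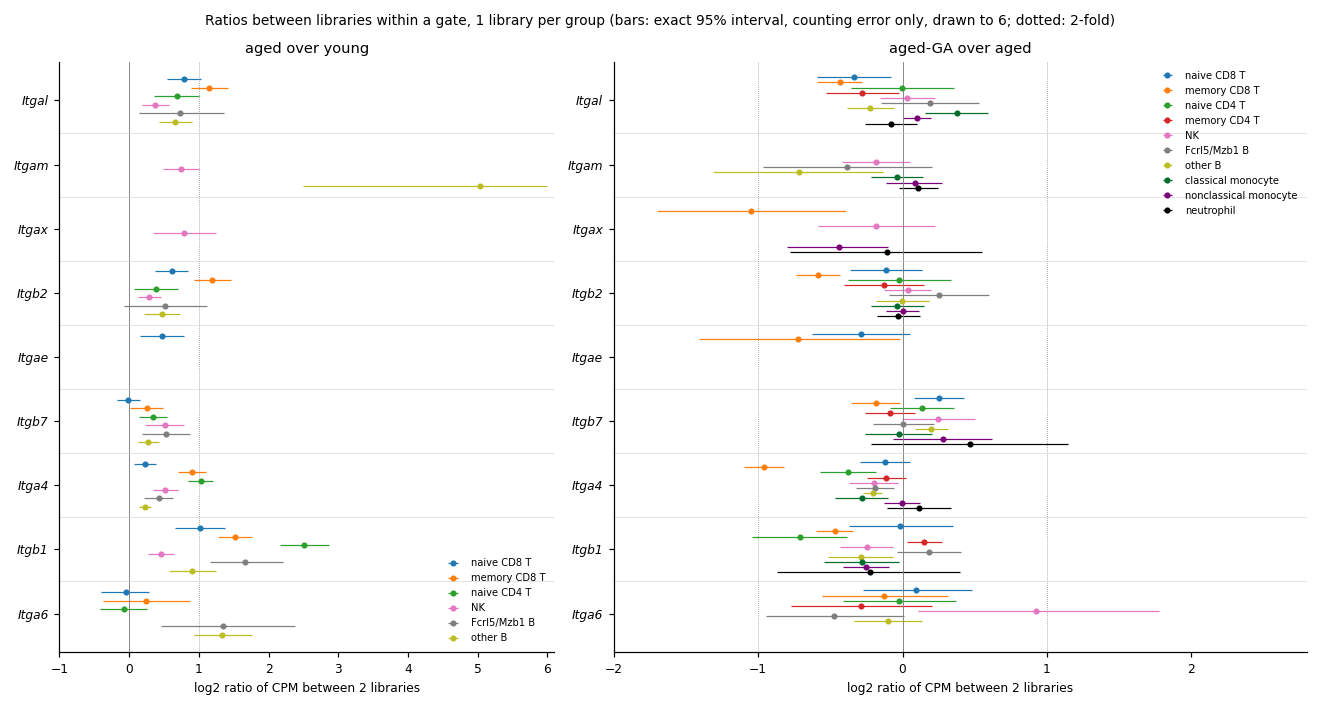
Log2 ratio of CPM between 2 libraries (x axis) for each of the 9 genes (y axis) and each gate counted (colours), aged over young on the left and aged-GA over aged on the right, with exact 95% intervals as bars, drawn to 6 at most. On the left 36 of the 39 points lie right of 0 and 10 past the dotted line at 2-fold. On the right 1 of the 69 points lies past it.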

How the data were processed

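Blood mononuclear cells of 3 groups of mice were sequenced, 1 library per group. The authors deposited UMI counts per gene and barcode, unnormalized, made with Cell Ranger (5.0.0 per the file headers, whereas the study's methods name another version) on mm10 per the submitters' processing notes. Here a barcode was kept if it had 200 genes or more, no more than 90% of the largest gene number in its library and no more than 7.5% mitochondrial UMIs.

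Gates required UMIs of 3 or 4 distinct markers (T, B, NK, monocyte, neutrophil, basophil, dendritic, plasma cell, platelet), and barcodes passing more than 1 gate, 4.85%, 10.8% and 9.81% of those kept in young, aged and aged-GA mice, were left out. Naive and memory T cells were told apart by which of 2 gene lists had more members detected, regulatory T cells by Foxp3, and monocytes by 4 classical against 4 nonclassical genes. T cells that fell in no subset, by their Cd4 and Cd8 UMIs or by a tie of the lists, were left out. They were 2335 of 5232, 778 of 2088 and 1154 of 3406 T cells in young, aged and aged-GA mice. The kept barcodes had medians of 4671, 3810.5 and 4752 UMIs. Doublets were called with Scrublet in scanpy 1.11.5 and removed in an alternative, 1.68%, 0.307% and 0.321% of gated cells.

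UMIs were summed per gate and library and tested with edgeR 4.0.16 in R 4.3.3 (TMM, filterByExpr, quasi-likelihood, library as a block), with DESeq2 1.42.0 as an alternative. The fits used 30 sums, or 38 for monocytes and plasma cells. The script was tested on simulated data. Ratios between libraries have exact conditional 95% intervals. Other alternatives changed the scaling, the filters, the gates, the pseudocount and the libraries used. The genes named outside the 9 were, per list and contrast, at most the 3 called genes with the largest change, and per integrin the 3 most alike in profile among 9207 genes, of which 1 is not reported here. The members and lists were chosen with earlier results of these data known. Promoters came from RefSeq, which matched 5 of the 9 genes.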

Additional observations from a re-analysis of the deposited data

Results flagged for a closer look

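For 3 genes the aged-GA library lay above the aged one in one gate and below it in another, with both intervals clear of 0. The difference between the gates was not tested, and the pairs are the extremes of 69. Itgal had log2 ratios of 0.37 in classical monocytes and -0.44 in memory CD8 T cells. Itgb1 had 0.15 in memory and -0.71 in naive CD4 T cells. Itgb7 had 0.25 in naive and -0.19 in memory CD8 T cells.

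The platelet gate was too small for the comparisons, with 17 cells and 15709 UMIs in the aged-GA library, and 3 integrins lay there above the limit that a count of 0 allows. Itga6 stood at 2928 CPM (46 UMIs), Itgb1 at 891 CPM (14 UMIs) and Itgb2 at 509 CPM (8 UMIs). The platelet subunits Itga2b and Itgb3 had 43 and 18 UMIs, and the myeloid gene Lyz2 had 44 UMIs in the same cells. The part of myeloid RNA in the Itgb2 value was not tested.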

How the results depend on the processing

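No called value changed sign. Of 63 values of a gene in a contrast between gates, 6 lost their call under at least 1 alternative and 5 gained one, in 13 and 12 combinations of a value and an alternative, and 15 that were not called changed sign, such as Itgb1 in plasma cells over the Fcrl5/Mzb1 gate, at -0.25 with stricter gates. Of 108 ratios between libraries 18 under 2-fold changed sign. Leaving out 1 library at a time gave 453 to 677 genes called for memory CD8 T cells, 580 to 781 for memory CD4 T cells, 430 to 718 for regulatory T cells, 196 to 370 for the Fcrl5/Mzb1 B gate, 907 to 1634 for nonclassical monocytes, 2774 to 3612 for classical monocytes over NK cells and 1513 to 2125 for plasma cells. The lowest came without the aged-GA library for memory CD4 T (580) and regulatory T cells (430) and without the aged library for the Fcrl5/Mzb1 B gate (196) and nonclassical monocytes (907). Of the 9 genes, 3 to 5, 2 to 3, 2, 2, 5 to 6, 2 to 4 and 3 to 4 were called in these contrasts, in that order. With no filter on low counts, 491 genes were called for the Fcrl5/Mzb1 B gate. With only the gates compared in the fit, 1 of the 9 was called in regulatory T cells, since Itgae did not pass the count filter there. Pairs past 2-fold numbered 6 for aged over young and 0 for aged-GA over aged when centred on the median of all genes. For aged-GA over aged there were 0 with a pseudocount of 1 CPM and 2 with stricter gates. With that pseudocount, the log2 ratio of Itgam in other B cells, aged over young, was 2.25. The fit with every sum of at least 20 cells, the plasma cell contrast and the centring were chosen after seeing the data. No paired analysis was possible because each group holds 1 library. Cell number limits regulatory T cells, basophils and plasma cells, gates of 20 to 102 cells. It also limits young memory CD4 T cells (45 cells) and young nonclassical monocytes (46 cells). The NK cells with Cd27 numbered 32, 32 and 34 in young, aged and aged-GA mice.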

Other observations

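Gamma-delta T cells, gated by Trdc without Cd4 or Cd8, numbered 129, 40 and 75 in young, aged and aged-GA mice, too few for the ratios between libraries. Itgb7 stood at 303, 269.9 and 325 CPM in the 3 libraries and Itga4, its partner, at 260.5, 385 and 216 CPM. Itgal, the LFA-1 α chain, stood at 108, 224 and 167 CPM and Itgb2 at 71.6, 161 and 150.3 CPM. Itgb1 was at 59.4, 184 and 124 CPM, with the young library lowest, and Itga6 at 41.1, 45.9 and 24.2 CPM on 27, 8 and 10 UMIs. Itgam had 1, 0 and 1 UMIs.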
